A study of Mus musculus with 4 samples.

Results

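Insulin-controlled glucose output genes are 9 genes of liver that either make glucose, carry the insulin signal or answer to it: Igfbp1, Pck1, G6pc, Fbp1, Ppargc1a, Foxo1, Irs1, Irs2 and Insr. They were chosen by name, as genes of gluconeogenesis and insulin signalling under the control of FOXO1 and insulin, and all 9 were found among the 12883 genes of the input comparison. Of the 9, 2 (G6pc and Igfbp1) had a transcript among the 7569 immunoprecipitate features analysed here, and the other 7 were not analysed there. The livers came from wild-type mice and from Fto knockout mice on the C57/Bl6 background, with 3 replicates stated for each of 4 groups: wild-type immunoprecipitate, Fto knockout immunoprecipitate, wild-type input and Fto knockout input. The immunoprecipitate was made by miCLIP, in which an antibody against methylated adenosine is crosslinked to RNA, and the input is total RNA before that step. The sources used here give no age, sex or feeding state of the mice, nor the allele or tissue range of the knockout, and leave unsaid if each replicate was another animal. The p-values therefore measure only the spread between these libraries, which may be technical.

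In the fed state insulin binds its receptor, encoded by Insr, which phosphorylates the adaptor proteins IRS1 and IRS2. The kinase AKT is activated downstream and keeps the transcription factor FOXO1 out of the nucleus. In fasting FOXO1 returns to the nucleus and, with the coactivator PGC-1alpha encoded by Ppargc1a, turns on genes of glucose production and the secreted protein gene Igfbp1, while glucagon acts through cAMP on some of the same promoters. The enzyme FTO removes methyl groups from adenosines of RNA, including N6,2'-O-dimethyladenosine, which occurs where the base next to the cap is an adenosine.

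Some of these promoters hold letters of elements through which insulin and cAMP are known to act, and the stretches around them are shown because they mark which genes share such a motif. A promoter window (250 bases before to 50 after the annotated start, RefSeq, build GRCm38.p6) was matched by symbol for 8 of the 9 genes; Insr had none. The insulin response motif was searched as CAAAACA or, on the other strand, TGTTTTG. It lay in the windows of 4 of the 8 genes, Igfbp1, G6pc, Irs1 and Irs2, and in 6.28% of all 32851 windows. In the sequences below, read 5′ to 3′ on the gene's strand, capitals mark that motif.
Igfbp1, chr11:7197537-7197786, plus strand: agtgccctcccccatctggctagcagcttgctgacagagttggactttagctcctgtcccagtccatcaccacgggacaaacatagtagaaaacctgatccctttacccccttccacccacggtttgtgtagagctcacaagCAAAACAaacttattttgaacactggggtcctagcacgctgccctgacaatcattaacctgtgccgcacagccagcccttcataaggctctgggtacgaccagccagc
G6pc, chr11:101367466-101367715, plus strand: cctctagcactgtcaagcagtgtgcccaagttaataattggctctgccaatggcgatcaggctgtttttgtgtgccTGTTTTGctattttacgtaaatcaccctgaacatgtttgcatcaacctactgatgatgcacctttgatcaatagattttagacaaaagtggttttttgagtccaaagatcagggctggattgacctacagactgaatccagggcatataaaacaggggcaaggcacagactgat
Irs1, chr1:82291450-82291565, minus strand: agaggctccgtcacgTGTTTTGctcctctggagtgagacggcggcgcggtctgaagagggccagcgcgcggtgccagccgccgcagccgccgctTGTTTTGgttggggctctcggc
Irs2, chr8:11008945-11008981, minus strand: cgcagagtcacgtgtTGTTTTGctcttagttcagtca
In Igfbp1 the motif began 108 bases before the annotated start and in G6pc 174 bases before it. Irs1 had 2 matches, at 111 and 32 bases, and Irs2 had 1, at 37 bases. A consensus bound by FOXO factors, TGTTTAC, which reads GTAAACA when taken from the opposite strand, was in none of the 8 windows and in 3.65% of all windows. Lack of this exact sequence does not mean that a window holds no FOXO site, and the insulin response matches are not excluded as such sites. The short core of the cAMP response element, TGACG or CGTCA, was in 3 of the 8, Pck1, Ppargc1a and Irs1, against 20.8% of all windows; this search was added after the values had been seen. It overlapped no insulin response match. Capitals mark it in the next pair of stretches.
Pck1, chr2:173152923-173153072, plus strand: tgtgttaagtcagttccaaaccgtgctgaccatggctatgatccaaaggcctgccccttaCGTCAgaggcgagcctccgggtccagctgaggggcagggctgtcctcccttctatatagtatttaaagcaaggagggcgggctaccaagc
Ppargc1a, chr5:51567726-51567825, minus strand: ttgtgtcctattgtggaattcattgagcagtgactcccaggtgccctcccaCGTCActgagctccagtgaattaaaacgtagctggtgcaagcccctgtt
Fbp1 and Foxo1 had no match of either kind. These are matches of letters in a fixed window of the reference and do not show binding in these livers.

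**Figure D1:**
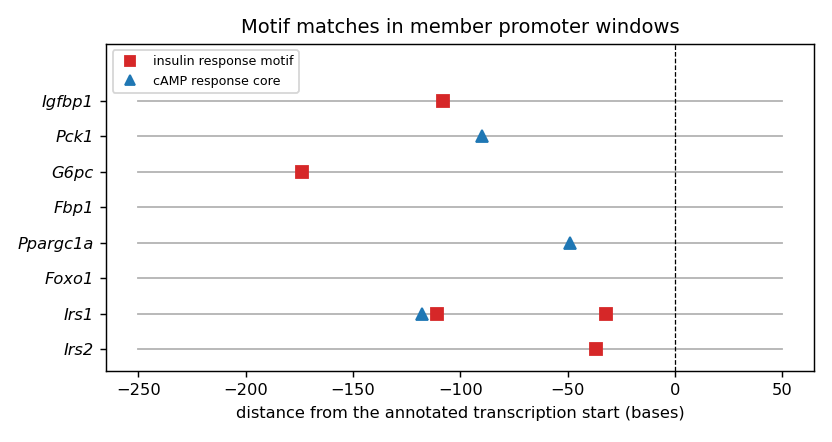
Positions of the motif matches in the promoter windows of 8 genes, as distance in bases from the annotated start (dashed line); squares are the insulin response motif and triangles the cAMP response core. Squares lie in the windows of Igfbp1, G6pc, Irs1 and Irs2, and no match lies after the start.

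The first transcribed base was read as well, because the antibody also binds dimethyladenosine at that position. An adenosine stood at the annotated start of 5 of the 8 genes (Igfbp1, Pck1, G6pc, Fbp1 and Foxo1) and a guanosine at that of the other 3 (Ppargc1a, Irs1 and Irs2). Over all windows 34.4% began with A and 35.6% with G. The 15 bases before the start and the start base, in a capital, are given for the genes that also had an immunoprecipitate feature.
Igfbp1, chr11:7197772-7197787, plus strand: gtacgaccagccagcA
G6pc, chr11:101367701-101367716, plus strand: aaggcacagactgatA
Annotated starts were not measured in these livers. The starts used for Ppargc1a and Fbp1 lie inside the gene spans given below, that of Fbp1 close to the end of its span. Their start bases and the result of the motif search hold for those starts only.

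The values below are the authors' own comparison of knockout with wild type, since the tables hold 1 comparison each and no value of a single library. For every gene they give a mean normalized read count over the libraries, a log2 fold change (log2FC), its standard error (SE), an unadjusted p and an adjusted p. A change was called where the adjusted p was under 0.05. The direction of the input comparison was read from Fto, which stood at a log2FC of −1.49 (adjusted p = 3.52e-04, SE 0.27) in the authors' deposited table and so lower in the knockout. Depth per library is unknown, and normalized means are not per length, so levels are not compared between genes. Hepatocyte transcripts were abundant, with Alb, which encodes albumin, at a mean of 84262 and a log2FC of 0.13 in the authors' deposited table.

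The input comparison asks whether the levels of these transcripts differ in liver without Fto. None of the 9 genes was called, against 0.0388% of all genes called by the authors' adjusted p (5 of 12883). At an unadjusted p under 0.05 there was 1 of the 9, Igfbp1, against 2.20% of all genes. The median log2FC of the 9 was 0.11 and that of all genes 0.02; 6 of the 9 lay above 0, against 53.5% of all genes. The genes were chosen with earlier results of these data known, so these shares are descriptions.

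Igfbp1 encodes a liver-secreted binding protein of insulin-like growth factors, and insulin represses its transcription. The gene (ENSMUSG00000020429) lies at chr11:7197787-7202546 on build GRCm38.p6. In the input its mean was 45.0 and its log2FC 0.94 (SE 0.30, p = 0.00172, adjusted p = 0.866) in the authors' deposited table, a fold of 1.92 on their scale. The difference did not pass the adjusted threshold. By size it was number 12 from the highest of the 12883 log2FC values, and by p number 27 from the lowest. Among the 2728 genes with a mean within 1.5 times that of Igfbp1, 6, Igfbp1 included, had a log2FC at least as far from 0.

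The enzymes of glucose production lay close to 0 or on different sides of it. Pck1 (ENSMUSG00000027513, chr2:173153073-173159274) encodes cytosolic phosphoenolpyruvate carboxykinase, which commits oxaloacetate to gluconeogenesis. It had a mean of 2380 and a log2FC of 0.11 (SE 0.29, p = 0.707, adjusted p = 0.9998) in the authors' deposited table. G6pc (ENSMUSG00000078650, chr11:101367716-101377903) encodes the catalytic subunit of glucose-6-phosphatase, which releases free glucose as the last step. Its mean was 406 and its log2FC 0.15 (SE 0.29, p = 0.605) in the authors' deposited table. Fbp1 (ENSMUSG00000069805, chr13:62864753-62888298) encodes fructose-1,6-bisphosphatase, the enzyme between the other two. Its mean was 1414 and its log2FC −0.28 (SE 0.23, p = 0.217) in the authors' deposited table, the lowest value of the 9; 9.42% of all genes lay lower still. None of the 3 enzyme genes had a value past 1.23 times its SE in size, which was that of Fbp1.

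Of the transcriptional regulators, Ppargc1a had the second highest value of the 9. Ppargc1a (ENSMUSG00000029167, chr5:51454249-52115853) encodes a coactivator of FOXO1 and HNF4A that fasting induces. Its mean was 20.8, the lowest of the 9, and its log2FC 0.41 (SE 0.30, p = 0.178, adjusted p = 0.9998) in the authors' deposited table. Foxo1 itself (ENSMUSG00000044167, chr3:52268337-52350109), the insulin-inhibited factor, stood at −0.02 (SE 0.28, p = 0.947, mean 76.5) in the authors' deposited table. Neither differed beyond the spread between libraries.

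The receptor and its adaptors were also near 0. Insr (ENSMUSG00000005534, chr8:3150922-3279649) had a log2FC of −0.16 (SE 0.24, p = 0.491, mean 414) in the authors' deposited table. Irs1 (ENSMUSG00000055980, chr1:82233105-82291439) stood at 0.19 (SE 0.25, p = 0.439, mean 133) in the authors' deposited table. Irs2 (ENSMUSG00000038894, chr8:10984681-11008929), the adaptor whose gene FOXO1 induces in fasting, stood at 0.01 (SE 0.29, p = 0.974, mean 31.8) in the authors' deposited table. After subtraction of the median of all genes Irs2 lay at −0.0090, so its sign depends on the scaling. In order of log2FC the 9 genes ran Igfbp1, Ppargc1a, Irs1, G6pc, Pck1, Irs2, Foxo1, Insr and Fbp1. Apart from the step of 0.53 from Igfbp1 to Ppargc1a, neighbours in that order lay within 1 SE of each other; no test was made between genes.

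**Figure D2:**
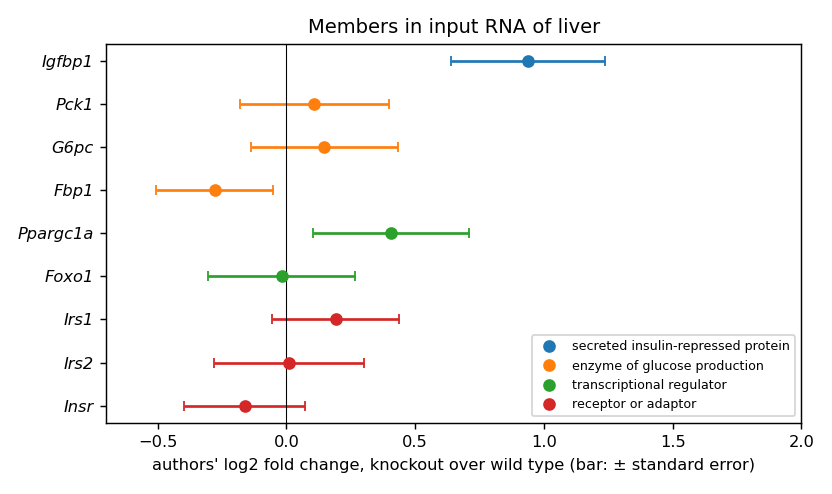
The authors' log2 fold change in input RNA (horizontal axis, knockout over wild type) for the 9 genes, coloured by role; bars are ± 1 standard error as deposited. Igfbp1 stands at 0.94, and the other 8 lie between −0.28 and 0.41.

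The SE does not read as plain precision here. Deposited SEs in the input did not exceed 0.302 and had their lowest median, 0.209, in genes with a mean under 2, against 0.299 at means from 10 to 30. Fold changes in this table have the small sizes of shrunken estimates, so the values printed for genes of modest mean, such as Igfbp1, Ppargc1a and Irs2, may understate a difference, and they set no upper limit to it.

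**Figure D3:**
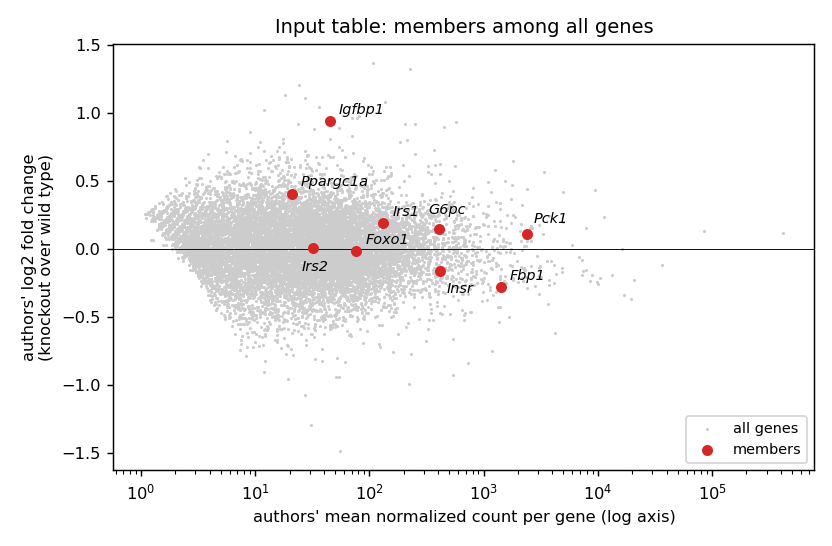
The authors' log2 fold change in input (vertical axis, knockout over wild type) against the mean normalized count (log axis) for all 12883 genes in grey, with the 9 genes in red. Igfbp1 lies at the upper edge of the cloud for its mean, and the other 8 lie inside it.

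Other genes of the same pathways were taken from 11 lists, whose counts are given beside those of all genes. Each list had 0 genes called in the input. At an unadjusted p under 0.05, 1.23% of all genes lay higher and 0.978% lower. Among the list genes, Pklr, Scd1 and Lpin1 had no p in the input and could not pass, though they stay in the list sizes. Among 20 measured gluconeogenic enzymes and transporters there were 0 in either direction (median 0.07). The lowest p was that of Pcx, which encodes pyruvate carboxylase, the mitochondrial entry step, at −0.33 (SE 0.23, p = 0.151) in the authors' deposited table. Mpc2, a subunit of the mitochondrial pyruvate carrier, stood at 0.31 (SE 0.23, p = 0.180) in the authors' deposited table. Among 22 glycolytic genes there were likewise 0 (median 0.03), and Aldoa, which encodes an aldolase, stood at 0.29 (SE 0.26, p = 0.261) in the authors' deposited table. Of 21 glycogen genes 0 passed (median −0.09). Gys2, the liver glycogen synthase, stood at −0.43 (SE 0.26, p = 0.104) and Ppp1r3b, which brings a phosphatase to glycogen, at 0.38 (SE 0.25, p = 0.123) in the authors' deposited table.

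The signalling lists held no gene at that level either. Of 26 genes of the insulin receptor cascade 0 passed (median −0.07, range −0.28 to 0.19). Pik3cb, a catalytic subunit of phosphoinositide 3-kinase, stood at −0.28 and Mtor, the growth-controlling kinase, at −0.27 in the authors' deposited table. Of 16 brakes on insulin signalling 0 passed (median −0.01). Grb14, an inhibitor of the receptor, stood at −0.45 (SE 0.25, p = 0.0707) and Phlpp2, a phosphatase that acts on AKT, at −0.49 (SE 0.29, p = 0.0882) in the authors' deposited table. Grb10, a relative of Grb14, stood on the other side at 0.45 (SE 0.30, p = 0.135) in the authors' deposited table. Among 18 insulin-induced lipogenic genes 0 passed (median −0.03), with Srebf1, the master regulator of fatty acid synthesis genes, at 0.33 (SE 0.22, p = 0.146) in the authors' deposited table.

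Genes known to be induced by FOXO1 in liver were divided. Of 18, 2 had an unadjusted p under 0.05, both higher, while 11 lay below 0 and the median was −0.08. The pair was Igfbp1 and Pdk4, which encodes a kinase that shuts pyruvate dehydrogenase in fasting and stood at 0.60 (SE 0.29, p = 0.0390) in the authors' deposited table. Txnip, whose product inhibits thioredoxin, stood at −0.35 (SE 0.27, p = 0.197) and Apoc3, an inhibitor of lipoprotein lipase, at −0.21 (SE 0.21, p = 0.304) in the authors' deposited table. In the IGF system, 3 of 11 genes were under 0.05, 2 higher and 1 lower. Igfbp2, another liver-secreted binding protein, stood at 0.94 (SE 0.28, p = 7.42e-04, adjusted p = 0.553), the same size as Igfbp1, and Igfbp3 at −0.60 (SE 0.30, p = 0.0442) in the authors' deposited table. Igfbp1 counts in both of these lists.

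Among hormone-responsive and regulatory genes the low p-values fell on both sides. Of 22 genes of the glucagon and cAMP arm 1 was under 0.05. This was Pde4b, a cAMP-degrading phosphodiesterase, at 0.81 (SE 0.28, p = 0.00429, adjusted p = 0.9998) in the authors' deposited table, while Gcgr, the glucagon receptor gene, stood at −0.33 (SE 0.21, p = 0.107). Of 21 transcriptional regulators 1 lay higher and 3 lower. Cry1, a clock repressor, stood at 0.68 (SE 0.29, p = 0.0198) in the authors' deposited table. The 3 lower were Cebpa at −0.52 (p = 0.0133), Ppara at −0.51 (p = 0.0335) and Creb3l3 at −0.47 (p = 0.0371) in the authors' deposited table, and all encode hepatocyte transcription factors. Of 15 glucocorticoid-induced genes 2 lay higher and 2 lower. Sgk1, a kinase gene, stood at 0.73 (p = 0.00666) and Tat, which encodes tyrosine aminotransferase, at 0.57 (p = 0.0302), whereas Angptl4, a lipase inhibitor gene, stood at −0.72 (p = 0.0122) and Cdkn1a, a cell-cycle inhibitor gene, at −0.63 (p = 0.0353) in the authors' deposited table. None of these passed the adjusted threshold, at which each adjusted p was 0.9998.

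**Figure D4:**
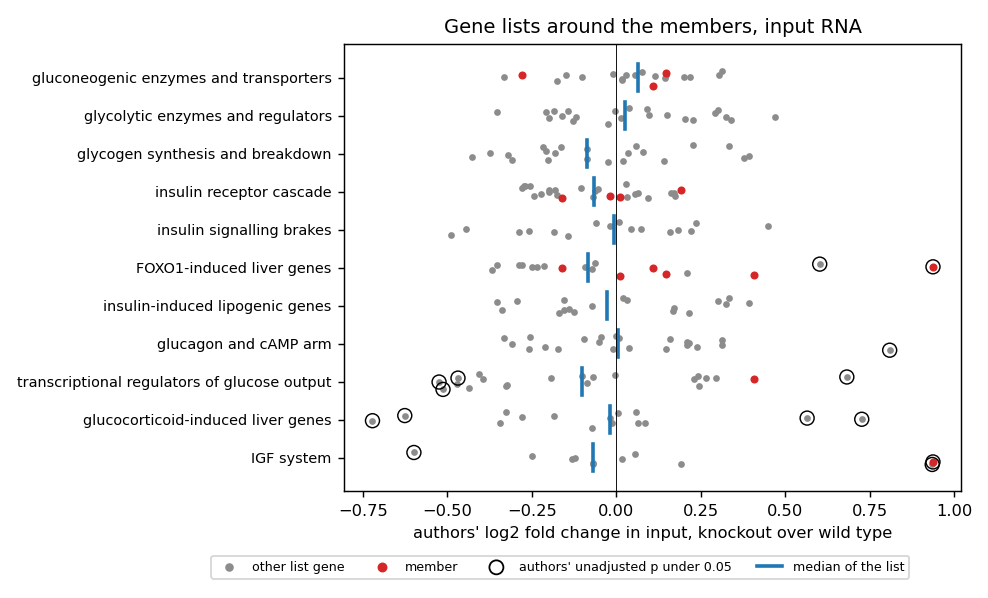
The authors' log2 fold change in input (horizontal axis, knockout over wild type) for each measured gene of 11 lists (rows); red points are among the 9 genes, blue bars are list medians and open circles mark an unadjusted p under 0.05. List medians lie between −0.10 and 0.07, and the circled genes lie on both sides of 0.

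Markers of liver zones and of other cell types were read beside these values, because Pck1, G6pc and Fbp1 are expressed more strongly in hepatocytes near the portal vein. In bulk RNA, fewer cells of a type and less RNA per cell cannot be told apart. Of 10 periportal markers, 1 had an unadjusted p under 0.05, Cyp2f2 at −0.75 (p = 0.00181), and the median was −0.01, with a summed mean of 7467, in the authors' deposited table. Of 9 measured pericentral markers, 3 were under 0.05, all higher, and all 9 lay above 0; their median was 0.42 and their summed mean 5503. Glul, which encodes glutamine synthetase, stood at 0.50 (SE 0.21, p = 0.0154) in the authors' deposited table. Kupffer cell markers had a median of 0.00 with 0 of 11 under 0.05, endothelial markers 0.12 with 1 of 8 (lower), stellate cell markers 0.00 with 1 of 8 (higher), and cholangiocyte markers 0.00 with 0 of 5. Erythroid markers were all below 0 (3 of 3, median −0.48), with 1 under 0.05, Alas2, the heme synthesis gene of red cells, at −0.99 (unadjusted p = 4.92e-04, adjusted p = 0.443, SE 0.29) in the authors' deposited table. Not all of these 3 erythroid genes had a p. Of 8 hepatocyte markers 1 was under 0.05, Cyp2e1 at 0.43 (p = 0.0399), and the median was −0.09 in the authors' deposited table. Of the lymphocyte markers 2 of 8 were measured, and 0 of 5 adipocyte markers. The part of zonation, red cells or other cell makeup in the value of Igfbp1 was not tested.

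The immunoprecipitate was compared to ask whether RNA bound by the antibody differs without Fto. Its direction is not stated and was read as knockout over wild type, like the input; read the other way, the signs of all its values turn, and so do the ranks and differences built on them. By the authors' adjusted p 1.45% of all features were called and 0 of the 2 features of these genes. Neither had an adjusted p. The same held for 5222 of all 7569 features, which could not be called but stay in the share given. Igfbp1 (ENSMUST00000020704) had a mean of 5.55 and a log2FC of 7.66 (SE 2.98) in the authors' deposited table, with no p. G6pc (ENSMUST00000019469) had a mean of 4.29 and a log2FC of −2.16 (SE 2.16, p = 0.147) in the authors' deposited table. Thus the G6pc value did not exceed its SE, and the Igfbp1 value was 2.57 times its SE.

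Both features rest on few reads. Over the 6 libraries the labels imply, the means amount to 33.3 normalized reads for Igfbp1 and 25.7 for G6pc, and at such totals a fitted fold depends on how the model treats groups near 0. The median log2FC of all features was −1.59, and 29.5% lay above 0. Igfbp1 lay above 97.4% of features and G6pc above 43.9%; with the direction turned these become 2.58% and 56.1%. On the reading used here, of 2907 features with a mean within 1.5 times that of Igfbp1, 98 had a log2FC at least as high, Igfbp1 included, and 50 of those 98 also had no p. Features with no p had a median absolute log2FC of 7.31, against 2.81 for those with one. From the fold and its SE, adjusted over all features, Igfbp1 reached an adjusted p of 0.0742 (normal test of the deposited values, Benjamini-Hochberg), where 10.8% of features passed. The authors' adjusted p called 1.45% of features, so this is not their test, and no call is made from it. The statistic printed for Igfbp1, 1.90, would give p = 0.168 by the chi-square relation that held for every feature with a p.

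**Figure D5:**
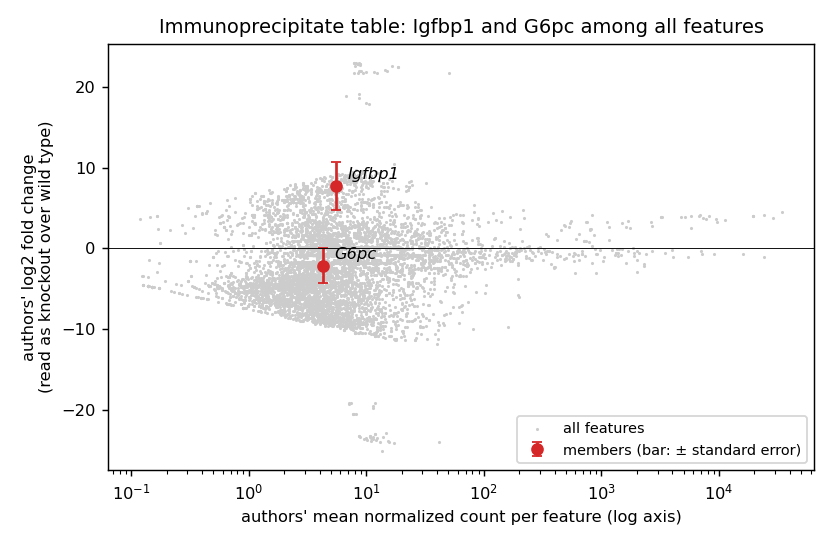
The authors' log2 fold change in the immunoprecipitate (vertical axis, read as knockout over wild type) against the mean normalized count (log axis) for all 7569 features in grey, with Igfbp1 and G6pc in red; bars are ± 1 standard error. Igfbp1 stands at 7.66 and G6pc at −2.16, both at means under 10.

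The change in the immunoprecipitate was then set against that in the input for the same gene. For Igfbp1 the immunoprecipitate minus input difference was 6.72 (SE 2.99, adjusted p = 0.125 by a normal test of the deposited values, with Benjamini-Hochberg adjustment over 3955 genes). For G6pc it was −2.31 (SE 2.18, adjusted p = 0.514). Neither passed, against 11.2% of the genes tested. With the immunoprecipitate direction turned, the Igfbp1 difference is −8.60 and passes (adjusted p = 0.0405 by the same normal test), against 11.4% of the genes tested, and that of G6pc is 2.01 (adjusted p = 0.578). The result for Igfbp1 therefore depends on a direction that is not stated. It also uses the fold of a feature for which the authors gave no p. No call is made from this result. At a minimum mean of 10 in both tables, the setting chosen for this test, neither gene could be tested. This test treats the errors in the 2 tables as unrelated; whether input and immunoprecipitate libraries share animals is not known here.

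In the lists, 3 of 138 immunoprecipitate features were called by the authors (2.17%), all lower, against 1.18% of all features called lower. Both shares count features with no adjusted p, which could not be called. Mlxipl, which encodes the glucose-sensing factor ChREBP, stood at −7.60 (SE 1.59, adjusted p = 0.0266, mean 10.4) in the authors' deposited table. An Igf1 transcript stood at −10.08 (SE 2.18, adjusted p = 0.0323, mean 13.1) and a Ppara transcript at −10.47 (adjusted p = 2.66e-04, mean 27.1) in the authors' deposited table. The other 5 Igf1 transcripts lay between −8.65 and −0.70 and the other 2 of Ppara at −6.11 and −4.97, with none called, in the authors' deposited table. Txnip had 2 transcripts with the same value, −8.54 (SE 2.22, p = 0.00682, no adjusted p), in the authors' deposited table. In the input the same genes gave a log2FC of −0.29 for Mlxipl, 0.05 for Igf1, −0.51 for Ppara and −0.35 for Txnip in the authors' deposited table. The gluconeogenic list had 6 immunoprecipitate features of 5 genes, 0 called. Its median of −0.82 lies on a fitted value that 842 features share, so it is not a measured shift. The insulin receptor cascade had 18 features of 11 genes, 0 called (median −4.07, against −1.59 for all features). That median falls between 2 transcripts of Grb2, at −4.08 and −4.07. Of the 18 features 17 lay below 0 and 1 above, on the direction read here, where 29.5% of all features lay above 0. Over the 11 lists the medians ran from −4.58 for glycolytic genes to −0.82 for lipogenic genes. Several features can belong to 1 gene, and a shift of the cascade was not tested. Most of the 18 had no adjusted p and could not be called.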

How the data were processed

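Both tables are comparisons deposited by the authors, made from libraries of immunoprecipitated and input liver RNA. The submitters' processing notes list STAR, bedtools 2.25.0, DESeq2 and mm10 without a role for any; read counting and the fitted model stay not given in the sources used here. Columns hold, per the file headers, a mean normalized signal, a log2 fold change with its log2 standard error, and a test statistic (a score). They also hold the authors' p-value, raw and adjusted. Input statistics equalled fold over standard error. Immunoprecipitate p-values equalled the chi-square tail (1 degree of freedom) of the deposited statistic, which was not the squared ratio of fold to standard error (Spearman 0.827 across features), so fold and p there may not be the same test.

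Members were found by the tables' gene names, and list genes by current symbols (12869 of 12883 input identifiers matched). Members and lists were chosen with earlier results of these data known. Named genes were the members, the up to 4 other genes of each list with the lowest input p, the 2 immunoprecipitate features per list with the lowest p, and the 2 markers with the highest mean per cell type; Igf1 and Mlxipl in the input, Cyp2f2, Cyp2e1 and genes of the closing section were added after their values were seen. Not every gene so chosen is printed, and 1 is not reported here. Computation used Python 3.11.15, scipy 1.17.1 and pandas 2.3.3; adjustment and normal tests were tested on simulated data.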

Additional observations from a re-analysis of the deposited data

How the results depend on the processing

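No member was called in either table by the authors' adjusted p, and that count of 0 stayed 0 with Benjamini-Hochberg adjustment over each table, with input genes of a mean of at least 10, with immunoprecipitate calls from fold over standard error, and with 1 immunoprecipitate feature per gene. In the immunoprecipitate neither member has an adjusted p from the authors, so their call could reach neither. Igfbp1 also has no p, so settings that use the authors' p could not call Igfbp1. Each member found there had 1 feature, so taking 1 feature per gene could not change the count. With an unadjusted p under 0.05 the input count became 1 (Igfbp1). Centring on the median of all genes turned Irs2 from 0.0096 to −0.0090; the other 8 members kept their sign in the input under both centrings, and Igfbp1 lay at 0.92 and 0.93. In the immunoprecipitate, centring on features with a mean of at least 10 gave 8.48 for Igfbp1 and −1.34 for G6pc, and centring on all features gave 9.25 and −0.57. The difference between tables, centred, was 7.55 for Igfbp1 and −1.48 for G6pc. With the immunoprecipitate direction turned it was −8.60 and 2.01, and 1 member, Igfbp1, passed (adjusted p = 0.0405). The turned direction and the centring on all features were chosen after seeing the data. List medians moved by less than the median standard error of their genes, which is that of single genes and wide against such moves. Some changed sign. With a mean of at least 10, the median of glycolytic genes went from 0.025 to −0.005. That of insulin signalling brakes went from −0.006 to 0.013. Centring on the median of all genes took the glucagon and cAMP arm from 0.004 to −0.014. The minimum mean of 10 for immunoprecipitate members, and of 50 for the difference between tables, left no member to test. No paired analysis was possible because the tables hold no single libraries, so no replicate could be left out either. Depth per library is unknown.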

Other observations

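Pericentral hepatocyte genes not described above lay on the same side as Glul in the input. Cyp1a2, a xenobiotic oxidase gene, stood at 0.55 (SE 0.23, p = 0.0175) and Cyp7a1, the rate-limiting enzyme gene of bile acid synthesis, at 0.61 (SE 0.29, p = 0.0360) in the authors' deposited table. Lhpp, Slc1a2, Oat and Gulo stood between 0.32 and 0.46, and the Wnt targets Lgr5 and Axin2 at 0.03 each, in the authors' deposited table. None passed the adjusted threshold. Among periportal genes other than Cyp2f2, Hal, which encodes histidine ammonia-lyase, had the value farthest from 0, at −0.33 (SE 0.26, p = 0.202), and Arg1, of the urea cycle, stood at −0.09 in the authors' deposited table.

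Igfbp2, which had the same input value as Igfbp1, had 2 immunoprecipitate features above 0, at 1.64 (SE 1.89, p = 0.358) and 2.50 (SE 1.97, p = 0.846), in the authors' deposited table. Neither was called. Of the 18 immunoprecipitate features of the IGF system, 5 lay above 0 and 13 below, on the direction read here. Of all features 29.5% lay above 0. The genes named in this section were chosen after their values were seen.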
